A study of Mus musculus with 9 samples.

Results

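The transcripts described here are the 10 genes that encode the classical MHCII chains (H2-Aa, H2-Ab1, H2-Eb1 and H2-Eb2), the invariant chain (Cd74), the peptide editor DM (H2-DMa, H2-DMb1 and H2-DMb2) and its partner DO (H2-Oa and H2-Ob). They were chosen by gene symbol from a table of 54532 genes, and all 10 passed the filter on low values that 12746 genes passed. RNA had been sequenced from 9 samples of dendritic cells (DCs) sorted from mouse spleens, with 3 samples in each of 3 groups. N-mDCs were mature conventional DCs (cDCs) of normal mice. T-mDCs were mature cDCs of mice with T-cell acute lymphoblastic leukemia (T-ALL), and T-DCs were CD11c+MHCIIlo cells of such mice, labelled immature DCs. The leukemia is driven by ICN1, the intracellular part of Notch1, carried with GFP by a retrovirus, and GFP+ leukemia cells had been passed into female young adult C57BL/6J or C57B6.SJL mice that were not irradiated.

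T-DCs were sorted from CD11c-enriched cells by low surface staining with an antibody to I-Ab, outside the gates set for GFP and for lymphoid markers. I-Ab is the protein made by H2-Aa and H2-Ab1, so low MHCII was part of how T-DCs were defined. The labels call the mature cDCs DC_hi and the T-DCs DC_lo, and the paper describes cDCs as CD11c+MHCII+. Lower H2-Aa and H2-Ab1 transcripts are thus not independent of the sort. Most of the other members share a coactivator with these genes, as described below. Their lower levels are not independent of the sort either. In bulk samples, fewer cells that express a gene and less RNA per cell cannot be told apart. Nothing in the labels ties the samples to separate animals, so p-values measure the spread between these samples, which may be technical.

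MHCII molecules are dimers of an α and a β chain that show peptides from the endocytic pathway to CD4+ T cells. In the endoplasmic reticulum the dimers bind the invariant chain, which blocks the peptide groove and carries them to late endosomes. There the invariant chain is cut down to the fragment CLIP, DM exchanges CLIP for other peptides, and DO binds DM and holds it back. Most of the genes are switched on together by the coactivator CIITA, which binds factors seated on a shared promoter element whose X and Y boxes lie a short way upstream of the start site. C57BL/6 mice lack a working H2-Ea gene, so the β chains of I-E are transcribed without an α partner.

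Apart from Cd74, the genes lie within 248 kb of chromosome 17. From low to high coordinates these 9 genes are H2-Oa (chr17:34092340-34095234), H2-DMa (chr17:34135182-34139101), H2-DMb2 (chr17:34143307-34151553), H2-DMb1 (chr17:34153072-34160230), H2-Ob (chr17:34238903-34245907), H2-Ab1 (chr17:34263209-34269418), H2-Aa (chr17:34282744-34287827), H2-Eb1 (chr17:34305877-34316199) and H2-Eb2 (chr17:34325665-34340229), in mm10 as the deposited table gives them. H2-Aa is on the minus strand and the other 8 are on the plus strand.

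Promoter sequences are shown because all 10 transcripts were lower in T-DCs, and the X–Y module is what these promoters are known to share. RefSeq windows (GRCm38.p6) from 250 bases before to 50 after a start site were found for 8 of the 10 genes. Those of H2-DMa began more than 9 kb from the deposited start of the gene and were not used, and Cd74 and H2-Ab1 had none. All 7 remaining windows held the Y-box letters TGATTGG on the gene's strand, starting between 45 and 102 bases before the start site. Of all 32851 windows in the table, 4.01% held TGATTGG on the gene's strand and 7.82% on either strand. In the stretches below, written 5′ to 3′ on the gene's strand, capitals mark TGATTGG and the letters TGATGC and AGCAAC. The stretch of H2-DMb1 is short because it lies in an annotated leader exon.
H2-Eb1: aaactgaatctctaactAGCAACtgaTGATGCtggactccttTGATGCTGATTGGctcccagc
H2-Eb2: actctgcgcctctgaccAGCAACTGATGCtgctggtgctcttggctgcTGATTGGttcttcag
H2-Aa: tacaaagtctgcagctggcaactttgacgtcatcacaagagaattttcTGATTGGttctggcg
H2-DMb1: TGATGCtaggctgattcactcagTGATTGG
H2-DMb2: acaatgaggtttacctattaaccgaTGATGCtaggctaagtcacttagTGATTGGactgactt
H2-Oa: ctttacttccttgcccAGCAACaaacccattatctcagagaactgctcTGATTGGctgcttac
H2-Ob: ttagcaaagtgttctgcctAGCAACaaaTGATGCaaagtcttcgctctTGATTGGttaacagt

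These stretches lie at chr17:34305758-34305820 (H2-Eb1), chr17:34325525-34325587 (H2-Eb2), chr17:34287859-34287921 (H2-Aa, minus strand), chr17:34153105-34153134 (H2-DMb1), chr17:34145109-34145171 (H2-DMb2), chr17:34092286-34092348 (H2-Oa) and chr17:34238798-34238860 (H2-Ob). The stretch of H2-DMb2 lies inside the deposited gene, since its RefSeq start is 1942 bases past the deposited one. TGATGC stood 14 to 19 bases before TGATTGG in 5 of the 7, and not in H2-Aa and H2-Oa. In H2-Eb1 a second TGATGC ends where TGATTGG begins. AGCAAC was in 4 of the 7, those of H2-Oa, H2-Ob, H2-Eb1 and H2-Eb2. On the gene's strand, TGATGC was in 5.60% and AGCAAC in 7.73% of all windows, and on either strand in 10.9% and 14.8%. ATTGG, which lies inside TGATTGG, was in 37.4% of all windows on either strand. CAGATG, the X-box letters set before the sequences were seen, was in 17.2% on either strand. Among the members CAGATG was only in the windows of H2-Oa and H2-Aa. It lay 223 and 136 bases before the start site in H2-Oa. In H2-Aa it lay 232 bases before the start site, on the other strand. TGATGC and AGCAAC were chosen after the sequences were seen. A match of letters is a description of the sequence and not of binding.

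Levels are given as FPKM, a unit that divides reads by gene length and library size, so a comparison between genes depends on the deposited lengths. Reads on genes ran from 15360815 to 18440913 per sample, and the 10 genes held between 40 and 302804 reads each. Samples 2 and 3 of the T-mDCs were very alike, with a chi-square per gene of 1.85 against 8.11 to 36.1 for the other pairs within a group, and were kept separate. T-DC samples 2 and 3 held 3.82% and 3.0% of their reads on hemoglobin genes, against at most 0.405% in each of the other 7 samples. Of 3 genes that mark cDCs, Itgax (CD11c), Flt3 and Zbtb46, all were detected in T-DCs. Flt3 lay between 4.48 and 15.4 FPKM in T-DCs and between 44.4 and 89.1 FPKM in the other groups. Zbtb46 lay between 1.84 and 3.42 FPKM in T-DCs and between 10.7 and 23.5 FPKM elsewhere, and both were called lower in T-DCs against N-mDCs (limma adjusted p = 0.00375 and 0.00554) and against T-mDCs (limma adjusted p = 0.00256 and 0.00288). Itgax, a marker of the sort, lay between 43.0 and 152 FPKM in T-DCs and between 158 and 230 FPKM in the other groups. It passed in neither comparison (limma adjusted p = 0.0926 and 0.149). Of 8 cDC1 genes T-DCs were called lower for 5 against N-mDCs and for 8 against T-mDCs, and their summed FPKM was 48.6 to 196 in T-DCs, 315 to 406 in N-mDCs and 420 to 627 in T-mDCs. Of 8 cDC2 genes 6 and 5 were called lower and 1 was called higher against T-mDCs, and their sum was 120 to 450, 429 to 466 and 255 to 325. The part of a different make-up of cDC types in the results was not tested.

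T-DCs expressed lower levels of all 10 transcripts than both kinds of mature cDC, and no T-DC sample overlapped a sample of either other group for any of them. In T-DCs, 8 of the 10 stood at 3.88% to 6.94% of the N-mDC mean, while H2-DMa and H2-DMb1 stood at 13.9% and 14.5%. By limma on log2(FPKM + 1), all 10 had an adjusted p under 0.05 in both comparisons, where T-DCs were called lower for 10.3% of all tested genes against N-mDCs and for 8.79% against T-mDCs. Samples of T-DCs lay wholly below those of N-mDCs for 16.4% of all tested genes and wholly below those of T-mDCs for 18.1%. The median log2 fold change of the 10 was -4.12 for T-DCs minus N-mDCs and -3.46 for T-DCs minus T-mDCs, and that of all tested genes was 0.05 and 0.07. The F-test over the 3 groups also called all 10, with adjusted p-values from 0.00132 to 0.00449, where it called 18% of all tested genes.

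**Figure D1:**
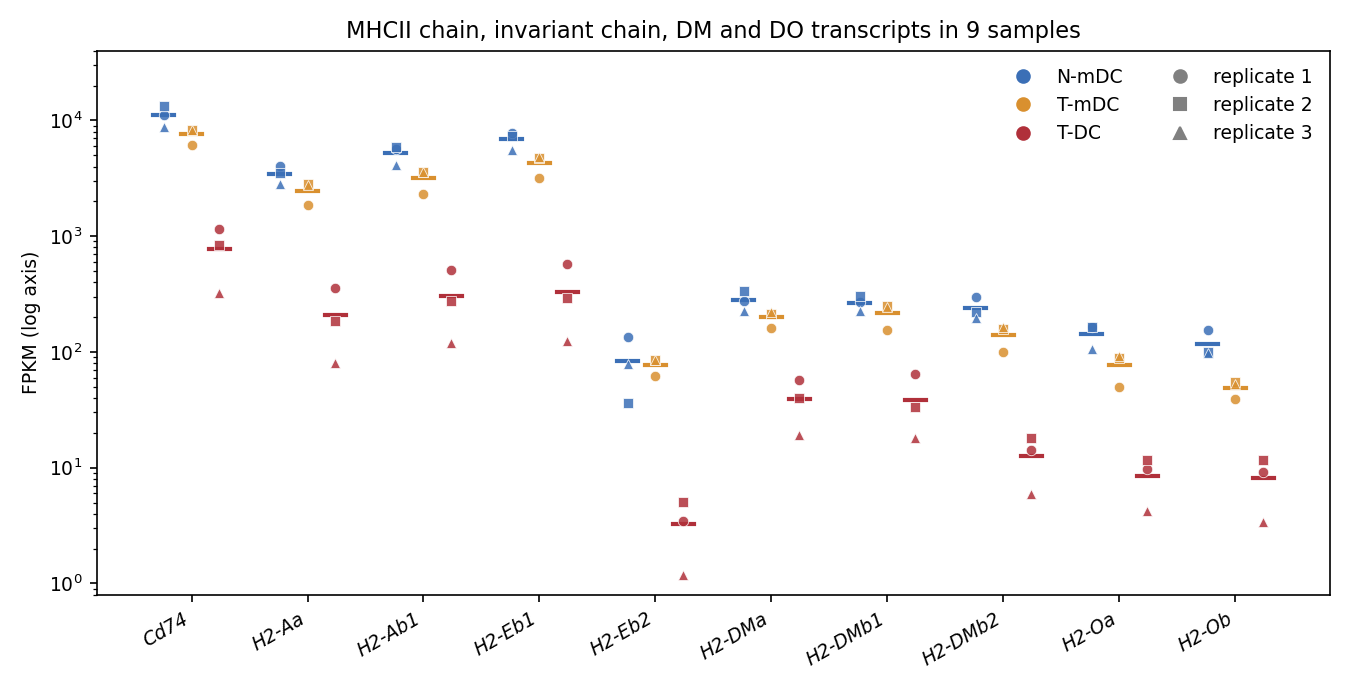
FPKM (log axis) of the 10 genes in each of the 9 samples. Colour gives the group, symbol shape the replicate and the bar the mean of 3 samples. The T-DC samples sit below every N-mDC and T-mDC sample for each gene, and Cd74 is the highest gene in each group.

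Cd74, the invariant chain, was the most abundant of the 10 in every group. It is the one member outside the MHC, on the plus strand of chromosome 18 (mm10, 60803848 to 60812646). N-mDC samples 1, 2 and 3 had 11203, 13338 and 8706 FPKM of Cd74, the T-mDC samples 6167, 8216 and 8328, and the T-DC samples 1143, 837 and 326, and all values below follow this order of samples. Among 22046 protein-coding genes it ranked first in all N-mDC and T-mDC samples, and 20th, 35th and 116th in T-DC samples 1 to 3. It was thus still among the abundant transcripts of T-DCs. On the log2 scale T-DCs differed from N-mDCs by -4.01 ± 0.44 (SE, n = 3 per group, limma adjusted p = 0.00137) and from T-mDCs by -3.46 ± 0.44 (limma adjusted p = 0.00256). A microRNA gene, Mir5107, lies inside Cd74 on the same strand, and its FPKM of 5.99 to 800 cannot be told apart from reads of Cd74.

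By FPKM, the classical chains followed in the order H2-Eb1, H2-Ab1, H2-Aa and, far below, H2-Eb2. The order of H2-Eb1 and H2-Ab1 rests on their deposited lengths of 1184 and 1637 bases. Their longest protein-coding transcripts in GENCODE M21 were 1669 and 1212 bases. H2-Ab1 had more reads than H2-Eb1 except in N-mDC sample 1 and T-mDC sample 1, so which of them was higher is uncertain. H2-Aa, the α chain of I-A, stood at 4067, 3536 and 2797 FPKM in N-mDCs, 1869, 2815 and 2750 in T-mDCs, and 356, 185 and 81.0 in T-DCs. H2-Ab1, its β partner, stood at 5618, 5936 and 4087 FPKM in N-mDCs, 2301, 3573 and 3586 in T-mDCs, and 512, 277 and 121 in T-DCs. T-DC sample 1 was the highest and sample 3 the lowest T-DC sample for both, and the highest was 4.40 and 4.25 times the lowest. Against N-mDCs, H2-Aa differed by -4.29 ± 0.48 and H2-Ab1 by -4.31 ± 0.48 on the log2 scale (limma adjusted p = 0.00151 and 0.0015). Against T-mDCs, the differences were -3.79 and -3.58 (limma adjusted p = 0.00256 and 0.00307).

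H2-Eb1, the β chain of I-E, differed from N-mDCs by -4.62 ± 0.49 on the log2 scale (limma adjusted p = 0.00128). It stood at 7770, 7308 and 5559 FPKM in N-mDCs, 3209, 4757 and 4793 in T-mDCs, and 576, 295 and 124 in T-DCs. The transcript was thus abundant in mature cDCs of mice in which its α partner is not made. The pseudogene left of that partner, H2-Ea-ps, was listed at 0 in all T-DC samples and at no more than 1.36 FPKM elsewhere. H2-Eb2, a second gene of the I-E β type, stood at 136, 36.6 and 79.2 FPKM in N-mDCs, 61.4, 84.5 and 85.5 in T-mDCs, and 3.49, 5.08 and 1.19 in T-DCs. It was the lowest gene in N-mDCs and T-DCs, and its T-DC values rest on 138, 174 and 40 reads. T-DCs differed by -4.25 ± 0.50 from N-mDCs and by -4.30 ± 0.50 from T-mDCs on the log2 scale (limma adjusted p = 0.00165 and 0.00197), and N-mDC samples spread 3.72-fold. H2-Eb1 and H2-Eb2 transcripts of GENCODE M21 shared no stretch of 50 bases.

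DM is a dimer of the α chain from H2-DMa with a β chain from H2-DMb1 or H2-DMb2. H2-DMa stood at 276, 339 and 224 FPKM in N-mDCs, 161, 213 and 223 in T-mDCs, and 57.4, 40.0 and 19.3 in T-DCs. H2-DMb1 stood at 269, 305 and 225 FPKM in N-mDCs, 156, 248 and 246 in T-mDCs, and 64.3, 33.8 and 18.1 in T-DCs. Both had the smallest log2 fold changes of the 10 against N-mDCs, at -2.92 ± 0.37 and -2.92 ± 0.41 (limma adjusted p = 0.00207 and 0.00339). Against T-mDCs they differed by -2.44 and -2.60 (limma adjusted p = 0.00455 and 0.0057).

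H2-DMb2 did not follow H2-DMb1. It stood at 299, 221 and 197 FPKM in N-mDCs, 99.1, 159 and 163 in T-mDCs, and 14.2, 18.0 and 5.93 in T-DCs. Its log2 fold change against N-mDCs was -4.23 ± 0.39 (limma adjusted p = 6.96e-04), and against T-mDCs it was -3.45 (limma adjusted p = 0.00197). The transcripts of H2-DMb1 and H2-DMb2 were identical at 94.6% of 1219 aligned bases, and 26.6% of the 50-base stretches of H2-DMb1 were also in H2-DMb2. Counting could therefore have moved reads between the 2 genes, and their split is uncertain.

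DO is a dimer of the α chain from H2-Oa and the β chain from H2-Ob. H2-Oa stood at 163, 164 and 105 FPKM in N-mDCs, 49.9, 88.8 and 93.1 in T-mDCs, and 9.69, 11.7 and 4.21 in T-DCs. H2-Ob stood at 154, 99.7 and 98.0 FPKM in N-mDCs, 39.0, 54.7 and 53.3 in T-mDCs, and 9.21, 11.7 and 3.38 in T-DCs. T-DC sample 2 was the highest T-DC sample for H2-Oa, H2-Ob, H2-DMb2 and H2-Eb2, whereas T-DC sample 1 was the highest for the other 6 genes. H2-Oa differed from N-mDCs by -4.00 ± 0.39 and H2-Ob by -3.80 ± 0.39 on the log2 scale (limma adjusted p = 8.23e-04 and 0.00106). Against T-mDCs the differences were -3.08 and -2.58 (limma adjusted p = 0.00256 and 0.00455). A gene on the opposite strand, BC051537, overlaps H2-Oa and was at most 0.745 FPKM.

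DO is best known from B cells, so a list of 10 B-cell genes is set beside these values. Their summed FPKM was 289, 327 and 260 in N-mDCs, 201, 60.0 and 61.0 in T-mDCs, and 49.7, 97.9 and 34.3 in T-DCs. T-DC sample 2 was thus the highest T-DC sample for the B-cell sum as for DO. T-DCs were called lower for 8 of the 9 list genes tested against N-mDCs, and for 4 of them against T-mDCs. Within T-mDCs, sample 1 had the highest B-cell sum and the lowest H2-Oa and H2-Ob. The part of B-cell RNA in the DO difference was not tested.

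**Figure D2:**
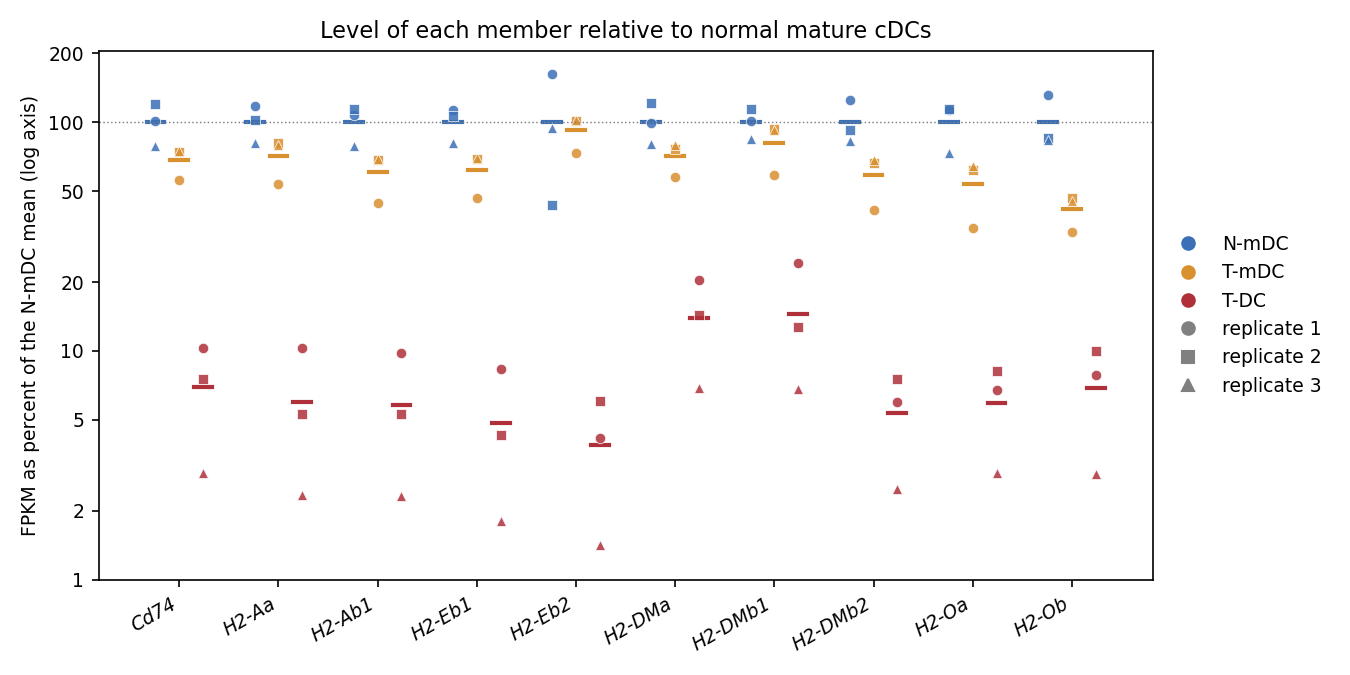
FPKM of each gene in each sample as a percent of its N-mDC mean (log axis, dotted line at 100%). Bars are group means and shapes are replicates. The T-DC means of H2-DMa and H2-DMb1, at 13.9% and 14.5%, stand above those of the other 8 genes, at 3.88% to 6.94%.

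Within a group, the genes formed the same broad layers. In N-mDCs the order by mean FPKM was Cd74, H2-Eb1, H2-Ab1, H2-Aa, H2-DMa, H2-DMb1, H2-DMb2, H2-Oa, H2-Ob and H2-Eb2. Neighbours whose N-mDC samples overlapped were H2-Eb1 with H2-Ab1, the 3 DM genes with their neighbours in DM, H2-Oa with H2-Ob, and H2-Ob with H2-Eb2. T-DCs had the same order, but only the steps from H2-Aa to H2-DMa and from H2-DMb1 to H2-DMb2 were free of overlap. In T-mDCs, H2-DMb1 (217 FPKM) stood above H2-DMa (199 FPKM) with overlapping samples, and H2-Eb2 (77.1 FPKM) stood above H2-Ob (49.0 FPKM) without overlap.

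T-mDCs held 41.8% to 92.0% of the N-mDC mean of each gene, lowest for H2-Ob and highest for H2-Eb2. None of the 10 passed the test between T-mDCs and N-mDCs by limma, nor by voom on recovered reads, where limma called 2.21% of all tested genes in either direction. H2-Ob differed by -1.23 ± 0.39 on the log2 scale (95% interval -2.11 to -0.34, limma adjusted p = 0.161) and H2-Oa by -0.91 ± 0.39 (95% interval -1.79 to -0.04, limma adjusted p = 0.28). These were the 2 genes with an unadjusted p under 0.05 in this fit of all 3 groups. For the other 8 genes the interval of the log2 difference included 0, and it reached -1.82 for H2-Eb1 and H2-Ab1. With T-DCs left out of the fit, 6 of the 10 had an unadjusted limma p under 0.05. That fit called 6.67% of all tested genes in either direction. T-mDC samples lay wholly below N-mDC samples for 7 of the 10, against 15.7% of all tested genes, and overlapped for H2-Aa, H2-Eb2 and H2-DMb1. H2-Ob was called lower when T-DCs were left out of the fit (limma adjusted p = 0.0358) or when T-DC sample 3 was left out (limma adjusted p = 0.0478), with adjusted p-values of 0.0358 to 0.385 over all alternatives.

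Hemoglobin and other red cell RNA differed between the groups. The summed FPKM of 8 erythroid genes was 603, 57936 and 41950 in T-DC samples 1 to 3, 14.5 to 179 in T-mDCs, and 99.4 to 5359 in N-mDCs. With their mean as a covariate in the fit, the N-mDC comparison still called all 10 members, whose log2 fold changes ran from -3.82 to -2.21. Against T-mDCs 0 of the 10 and 0 of all tested genes were then called by limma, although all 10 members kept an unadjusted p under 0.05, with log2 fold changes from -3.21 to -1.50 and adjusted p-values from 0.199 to 0.324. The erythroid sums of T-DCs and T-mDCs did not overlap, so that fit cannot separate group from red cell RNA. T-DC sample 1, with 0.0422% of its reads on hemoglobin genes, lay below every N-mDC and T-mDC sample for all 10 genes. The summed FPKM of 8 macrophage genes was 590 to 2690 in T-DCs, 1453 to 3124 in N-mDCs and 417 to 1202 in T-mDCs, and that of 8 neutrophil genes was 8.59 to 4327, 56.6 to 663 and 3.63 to 15.6. The part of these cells in the differences was not tested.

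Ratios within a sample do not depend on how the library was scaled. Over 13 ratios, the 3 groups were compared by a two-sided exact permutation test of log2 ratios (smallest p possible 0.00357), and p-values were adjusted over the 13. The ratios were set with earlier results of these data known. Between a pair of groups 3 samples against 3 cannot go below an exact p of 0.10. Of the 13, 7 had an unadjusted p under 0.05 and 5 an adjusted p under 0.05. Each exact permutation p below is from the test over the 3 groups, so differences between T-mDCs and N-mDCs also enter it. The smallest p was reached by H2-DMa to H2-Oa, H2-DMb1 to H2-Ab1, H2-DMb2 to H2-Ob and H2-DMb1 to H2-DMb2. In each of these, T-mDCs also lay above N-mDCs with no overlap, by 1.34-fold to 1.38-fold.

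The ratio of DM to DO depended on which chains were paired. H2-DMa to H2-Oa, the α chains, was 1.70, 2.06 and 2.13 in N-mDCs, 3.23, 2.40 and 2.40 in T-mDCs, and 5.92, 3.41 and 4.59 in T-DCs. T-DCs lay 2.32-fold above N-mDCs and 1.71-fold above T-mDCs with no overlap (exact permutation p = 0.00357, adjusted 0.0116). H2-DMb1 to H2-Ob was 1.74, 3.05 and 2.30 in N-mDCs, 3.99, 4.54 and 4.62 in T-mDCs, and 6.98, 2.88 and 5.35 in T-DCs. Here T-DC sample 2 lay within the N-mDC range, and the test was not passed (exact permutation p = 0.075, adjusted 0.119). H2-DMb2 to H2-Ob was 1.94, 2.22 and 2.01 in N-mDCs, 2.54, 2.90 and 3.06 in T-mDCs, and 1.55, 1.54 and 1.75 in T-DCs. It was thus lowest in T-DCs, 1.27-fold below N-mDCs and 1.76-fold below T-mDCs with no overlap (exact permutation p = 0.00357, adjusted 0.0116).

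Summed over all DM and all DO genes, the ratio of DM to DO was 2.66, 3.27 and 3.18 in N-mDCs, 4.68, 4.32 and 4.32 in T-mDCs, and 7.19, 3.91 and 5.71 in T-DCs. T-DCs overlapped T-mDCs and lay above N-mDCs, by 0.85 on the log2 scale. No test was run on this sum.

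Beside the chains DM acts on, its genes differed from each other. H2-Aa and H2-Ab1 encode the protein that was sorted on, so ratios that hold either chain are not independent of the sort. H2-DMb1 to H2-Ab1 was 0.0479, 0.0513 and 0.0551 in N-mDCs, 0.0678, 0.0696 and 0.0687 in T-mDCs, and 0.125, 0.122 and 0.150 in T-DCs. T-DCs lay 2.57-fold above N-mDCs and 1.92-fold above T-mDCs with no overlap (exact permutation p = 0.00357, adjusted 0.0116). H2-DMa to H2-Aa was 0.0680, 0.0958 and 0.0802 in N-mDCs, 0.0864, 0.0757 and 0.0812 in T-mDCs, and 0.161, 0.217 and 0.239 in T-DCs. It did not overlap between T-DCs and the others, but the adjusted p was 0.0597 (exact permutation p = 0.0321). No ratio of H2-DMb2 to a chain was set, and its log2 fold change against N-mDCs (-4.23) lay near that of H2-Ab1 (-4.31). The ratios of DO to the chains did not pass, with an exact permutation p of 0.279 for H2-Oa to H2-Aa and 0.114 for H2-Ob to H2-Ab1.

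The β chains of DM also shifted against each other. H2-DMb1 to H2-DMb2 was 0.901, 1.38 and 1.14 in N-mDCs, 1.57, 1.57 and 1.51 in T-mDCs, and 4.52, 1.87 and 3.05 in T-DCs. T-DCs lay 2.63-fold above N-mDCs and 1.91-fold above T-mDCs with no overlap (exact permutation p = 0.00357, adjusted 0.0116), within the limit that reads of the pair may have been split unevenly. T-DC sample 1, where it was highest, also had the highest macrophage sum of the T-DC samples (2690 FPKM), and T-DC sample 2, where it was lowest, had the highest B-cell sum. Within the other groups, N-mDC sample 2 and T-mDC sample 1 had the highest ratio together with the highest B-cell sum and the highest macrophage sum. The part of these cells in the ratio was not tested.

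Of the 4 ratios of a chain to Cd74, only that of H2-Eb1 was called. H2-Aa to Cd74 was 0.363, 0.265 and 0.321 in N-mDCs, 0.303, 0.343 and 0.330 in T-mDCs, and 0.311, 0.221 and 0.248 in T-DCs, with overlap between all groups (exact permutation p = 0.157, adjusted 0.17). H2-Ab1 to Cd74 did not pass either (adjusted exact permutation p = 0.119). H2-Eb2 to Cd74 was 0.0121, 0.00274 and 0.00910 in N-mDCs, 0.00996, 0.0103 and 0.0103 in T-mDCs, and 0.00305, 0.00607 and 0.00366 in T-DCs. T-DCs lay 2.49-fold below T-mDCs with no overlap and overlapped N-mDCs, and the test over the 3 groups was not passed (exact permutation p = 0.146, adjusted 0.17). H2-Eb1 to Cd74 was 0.694, 0.548 and 0.639 in N-mDCs, 0.520, 0.579 and 0.575 in T-mDCs, and 0.504, 0.352 and 0.380 in T-DCs. T-DCs lay 1.53-fold below N-mDCs with no overlap (exact permutation p = 0.0107, adjusted 0.0279). H2-Aa to H2-Ab1, the 2 chains of I-A, was 0.724, 0.596 and 0.684 in N-mDCs, 0.812, 0.788 and 0.767 in T-mDCs, and 0.695, 0.666 and 0.672 in T-DCs (exact permutation p = 0.0321, adjusted 0.0597). The ratio of the I-A chains thus lay between 0.596 and 0.812 across all samples, with T-mDCs above both other groups without overlap.

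**Figure D3:**
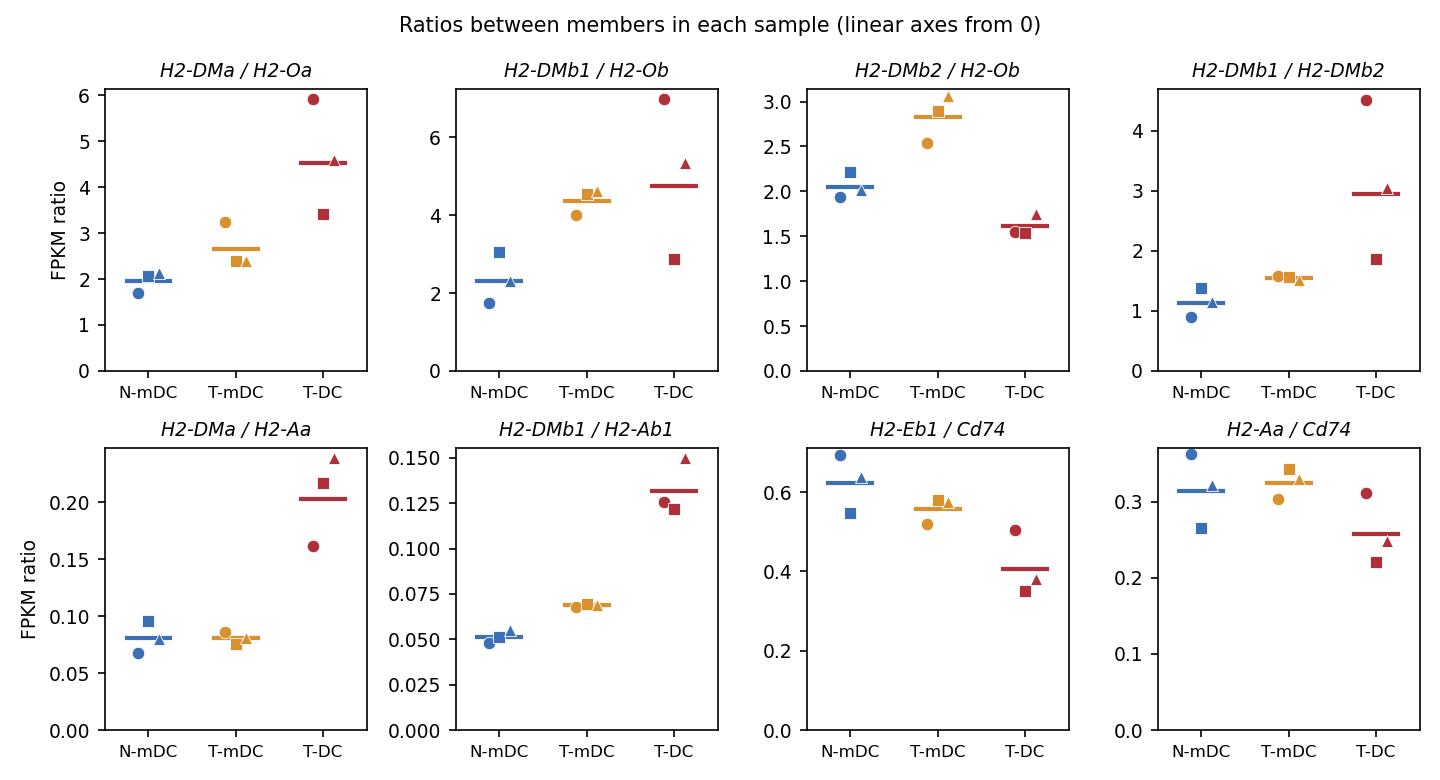
FPKM ratios in each sample for 8 of the 13 ratios, on linear axes from 0. Colours are groups, shapes are replicates and bars are geometric means. H2-DMa to H2-Oa and H2-DMb1 to H2-Ab1 lie higher in T-DCs than in both other groups, H2-DMb2 to H2-Ob lies lower, and H2-DMb1 to H2-Ob overlaps.

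The 5 ratio calls were recomputed with samples left out or averaged. H2-DMb1 to H2-Ab1 and H2-DMb2 to H2-Ob stayed called when any 1 sample was left out and when T-mDC samples 2 and 3 were averaged. Both rest on a DM β chain whose split of reads is uncertain, and H2-Ab1 encodes a chain of the sorted protein. H2-DMa to H2-Oa lost its call without N-mDC sample 1 (adjusted exact permutation p = 0.065). H2-DMb1 to H2-DMb2 and H2-Eb1 to Cd74 lost theirs with T-mDC samples 2 and 3 averaged (adjusted exact permutation p = 0.108 for both) and whenever an N-mDC or T-mDC sample was left out (0.0619 to 0.116). H2-DMb1 to H2-Ob became called without T-DC sample 2 (adjusted exact permutation p = 0.00929), which had the lowest ratio of T-DCs. H2-DMa to H2-Aa and H2-Aa to H2-Ab1 became called without N-mDC sample 2 (adjusted exact permutation p = 0.0371 and 0.0348). The ratios of DO to the chains became called without T-DC sample 1 (adjusted exact permutation p = 0.0116 for H2-Oa to H2-Aa and 0.0332 for H2-Ob to H2-Ab1), higher in T-DCs than in the other groups.

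For 18 other genes of MHCII expression and antigen processing, T-DCs were called lower for 2 and higher for 1 against N-mDCs, where 16.4% of all tested genes were called in either direction. Against T-mDCs 4 were called lower and 1 higher, beside 14.2% of all tested genes, and between T-mDCs and N-mDCs 0 passed by limma, with 2 (Ctsl and Cd83) at an unadjusted p under 0.05. In the same order, the median log2 fold change of the 18 was -0.03 and 0.15, beside 0.05 and 0.07 for all tested genes. The counts rested on single samples, since without T-DC sample 1 they were 8 in both T-DC comparisons and without T-DC sample 2 they were 2 in both. Without T-mDC sample 2 or 3, 2 genes were called in each.

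Among the regulators, Ciita, the coactivator that drives MHCII transcription, stood at 76.1, 44.2 and 52.9 FPKM in N-mDCs, 42.4, 75.8 and 76.7 in T-mDCs, and 8.01, 5.95 and 2.48 in T-DCs. T-DCs were lower in both comparisons, by -3.25 and -3.40 on the log2 scale (limma adjusted p = 0.00179 and 0.00197). Since Ciita drives the genes behind the sorted protein, its lower level is not independent of the sort either. Of the factors it docks on, Rfx5 was called only against T-mDCs (-1.82, limma adjusted p = 0.019), with -1.18 against N-mDCs (limma adjusted p = 0.0704). Rfxap, Rfxank, Nfya, Nfyb, Nfyc and Creb1 passed in neither comparison, with log2 fold changes between -0.49 and 0.92.

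Among the genes that process antigen, Ctss, Ctsl, Ctsb, Ctsd and Lgmn, which encode endosomal proteases, passed in no comparison. Ctss, which cuts the invariant chain in DCs, stood at 736, 821 and 819 FPKM in N-mDCs, 638, 498 and 491 in T-mDCs, and 1212, 653 and 404 in T-DCs. The T-DC samples thus spanned the levels of both other groups. Ifi30, a thiol reductase of the endosome, was called lower against T-mDCs (-1.63, limma adjusted p = 0.0159) and had an adjusted p of 0.0521 against N-mDCs (-1.12). Sppl2a, which clears the last piece of the invariant chain from the membrane, did not pass in either.

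March1 and March8 encode ubiquitin ligases that act on surface MHCII. March1 did not pass, with log2 fold changes of -0.45 and -0.72. March8 was higher in T-DCs (3.02 and 3.50, limma adjusted p = 0.0328 and 0.0213), but stood at 4.27, 56.8 and 38.1 FPKM in T-DC samples 1 to 3, high in the same samples as the erythroid genes. Its highest value in the other groups was 2.32 FPKM. Cd83, a maturation marker that holds MHCII on the surface by opposing March1, stood at 1013, 608 and 714 FPKM in N-mDCs, 181, 283 and 291 in T-mDCs, and 48.4, 34.3 and 13.0 in T-DCs. It was lower in T-DCs in both comparisons (-4.71 and -3.09, limma adjusted p = 7.98e-04 and 0.00407).

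**Figure D4:**
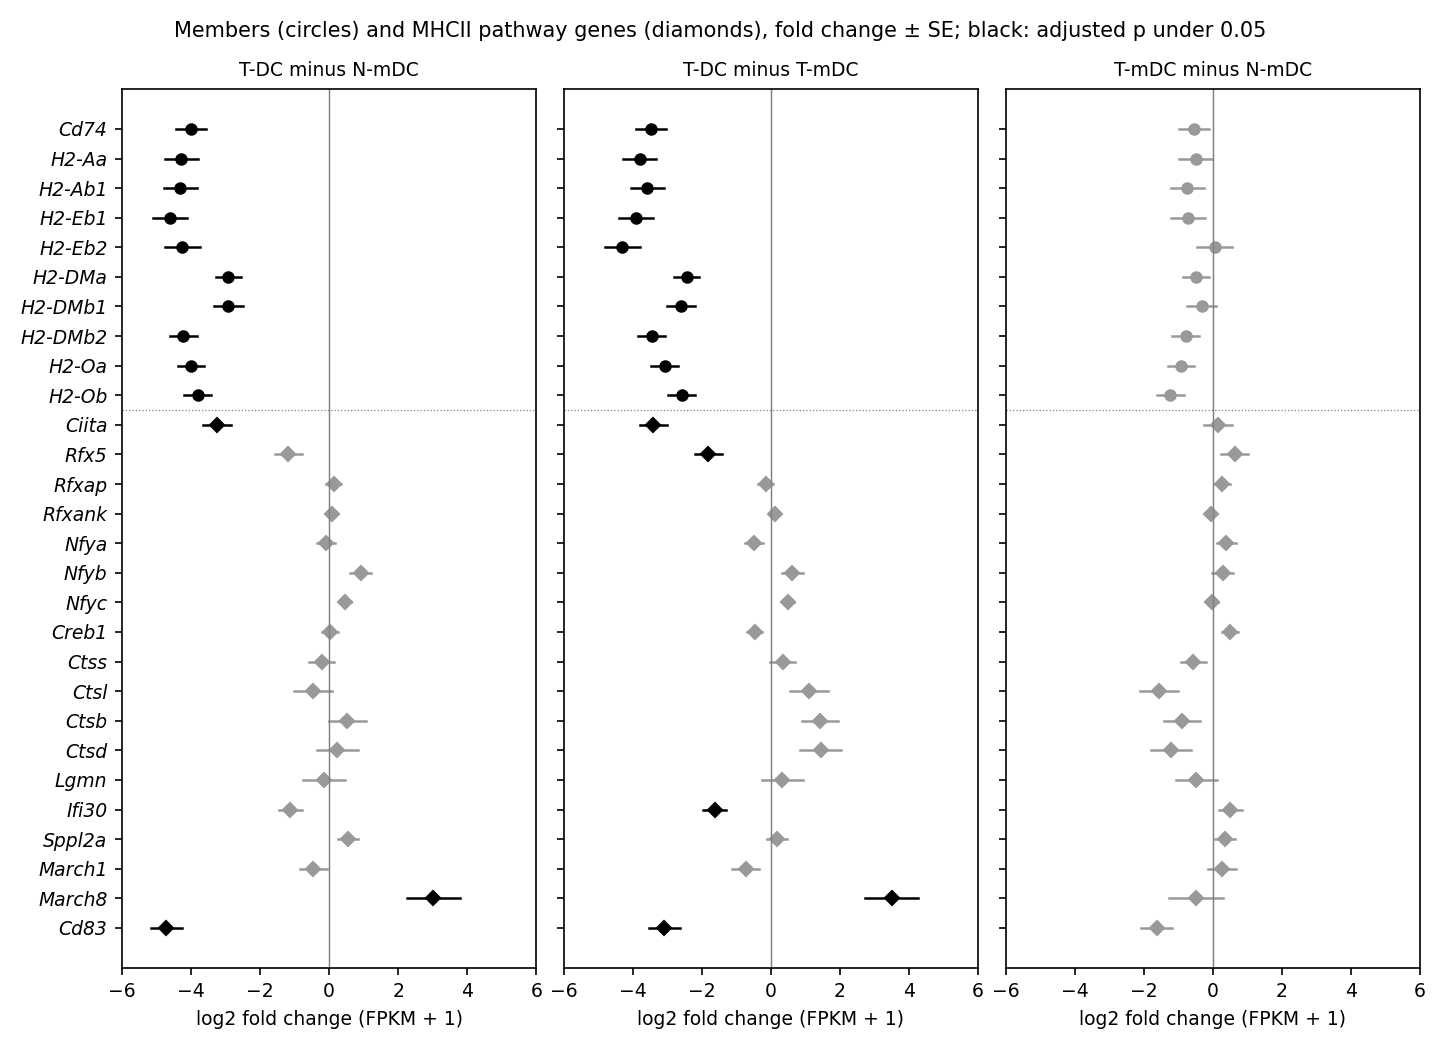
Log2 fold change of FPKM + 1 (± SE, limma) for the 10 members (circles) and 18 pathway genes (diamonds) in the 3 comparisons. Black marks an adjusted p under 0.05 and grey the rest. The 10 members lie between -4.62 and -2.44 in the T-DC comparisons, while the pathway genes lie on both sides of 0.

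Over the 9 samples, the levels of the 10 genes were correlated, with the gap between T-DCs and the other groups shared by all. Pearson's r of log2(FPKM + 1) between any pair lay between 0.933 (H2-Eb2 with H2-DMa) and 0.999 (H2-Ab1 with H2-Eb1), and the T-DC samples were the lowest of the 9 for every member. Within a group the order of samples differed between genes, as in N-mDC sample 2, which was the highest for Cd74 and the lowest for H2-Eb2. Outside the 10, the genes most like Cd74 over the 9 samples were Gm44135 (r = 0.994), Marveld1 (0.993), Gpr171 (0.992), St14 (0.992) and Tbc1d10c (0.991). Those most like H2-Oa were Scimp and St14 (both 0.992), Gm44135 (0.991), Abhd6 (0.990) and Adgrg5 (0.990). Those most like H2-Ob were St6gal1 (0.995), Cd83 (0.994), Klrd1 (0.991), Rrad (0.988) and Cdh17 (0.988).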

How the data were processed

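RNA of sorted DCs had been extracted with a column kit and sequenced on Illumina libraries. The authors deposited FPKM for all genes on mm10, and the aligner, the annotation and whether counting used strand are not given in the sources used here. Multiplied by gene length, the values came out as whole reads to within 5.8e-05 of a read in every sample. The library size that they imply was not the count of reads on genes. It was lower in T-DC sample 2 (15498648 against 16977553) and higher in T-mDC sample 1 (18878243 against 17559243). Genes that reached 1 FPKM in 3 or more samples were tested with limma 3.58.1 in R 4.3.3 on log2(FPKM + 1), with the 3 groups in 1 fit, a variance trend and Benjamini-Hochberg adjustment over all tested genes (threshold 0.05). The pseudocount understates changes of low genes. Ratios were tested by exact permutation in Python 3.11.15 with numpy 2.4.6 and had no pseudocount. Both procedures were tested on simulated data. Depth limits H2-Eb2 most, with 40 reads in 1 sample. All 9 sample columns were mapped to a sample and 0 were left unused. March1 and March8 were matched by Ensembl identifier, since the table holds their symbols as dates. The genes named are the members, the pathway list, markers whose values move with a member, and the 5 genes most like Cd74, H2-Oa and H2-Ob. The members, ratios and lists were chosen with earlier results of these data known.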

Additional observations from a re-analysis of the deposited data

How the results depend on the processing

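Against N-mDCs all 10 members stayed lower and called under all 21 alternatives. Against T-mDCs they did so under all but the erythroid covariate, where 0 were called. That covariate did not overlap between T-DCs and T-mDCs, so the fit cannot separate it from the group. Between T-mDCs and N-mDCs 1 member was called when only the compared groups were fitted, 0 to 1 when each sample was left out, and 0 otherwise. H2-Eb2 changed sign there under 5 alternatives, to -0.34 with the erythroid covariate and -0.023 with T-mDC samples 2 and 3 averaged, and ran from -0.44 to 0.49 when 1 sample was left out. The median of all genes moved from 0.07 to -0.23 (T-DCs against T-mDCs) and from 0.03 to 0.23 (T-mDCs against N-mDCs) on TPM, with the same member calls. Median-of-ratios scaling called 2096 and 1813 of all genes in the T-DC comparisons, the same counts as the main fit. It hardly changed the scale of the values and was thus hardly a separate check.

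Of the 13 ratios, 5 were called as reported, 3 with T-mDC samples 2 and 3 averaged and 2 to 7 when each sample was left out. Between T-DCs and N-mDCs, the log2 ratio of H2-Aa to H2-Ab1 changed sign without N-mDC sample 2 and ran from -0.056 to 0.085 when each sample was left out, and that of H2-Oa to H2-Aa changed sign without T-DC sample 2 and ran from -0.13 to 0.48. The log2 difference of the summed DM to DO ratio ran from 0.64 to 1.14.

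Pathway genes called, chosen as a result after the data were seen, were 3 (no filter), 0 (erythroid covariate) and 2 (T-mDC samples 2 and 3 averaged) against T-mDCs, and 1 for T-mDCs minus N-mDCs, both when only those groups were fitted and with the covariate. Leaving out each sample gave 2 to 8, 2 to 8 and 0 to 1 in the 3 comparisons. Without T-DC sample 1, 4968 of all genes were called against N-mDCs, where 2096 were called with it.

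Same-numbered samples did not deviate together (r from -0.47 to 0.27), so the replicate number was not taken to pair samples. With it as a block, 10, 10 and 0 members were called, and 0 ratios, with a lowest adjusted exact permutation p of 0.0903. Permuting within blocks leaves far fewer arrangements and so a higher smallest p, which made the loss of ratio calls close to fixed. Voom on the recovered reads called 2019 and 1910 genes in the T-DC comparisons, with all 10 members in both.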
